A study of Drosophila melanogaster with 16 samples.

Results

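Genes were compared between R7 photoreceptors and L3 lamina neurons of the fruit fly (Drosophila melanogaster), 2 kinds of neuron that both feed the colour pathway of the visual system and whose axons end in different layers of the medulla. The comparison used 2 R7 libraries and 4 L3 libraries, and took each gene that reached 1 RPKM in 2 or more of these 6 libraries. RPKM is a read count scaled to gene length and to library depth. Of the 15682 genes in the deposited table, 8580 met that rule, among them 6323 that reached 1 RPKM in all 6 libraries. The genes nearest to the threshold were nec, just inside it with a second-highest value of 1.0015 RPKM, and CG15213, just outside it with 0.999715 RPKM.

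The series holds RNA sequencing libraries of 7 kinds of sorted pupal neuron, R7, R8 and L1 to L5, and its title concerns ligands and receptors of the immunoglobulin superfamily in synaptic partners. Both groups carry a wild type genotype and the tissue label optical lobe. The tissue was dissociated with papain and Liberase, cells were sorted by flow cytometry, and total RNA was sequenced. Which lines and markers served to sort R7 and L3 is not given in the sources used here. The age field of the labels gives 65 h after pupal formation for R7 and 40 h for L3, whereas the protocol gives dissection at 40 h for both. The other types, which enter some comparisons below, have age fields of 96 h (R8), 24 h (L1), 35 h (L2), 45 h (L4) and 53 h (L5). The protocol gives 40 h for them too. Were the age field right, age could not be told apart from cell type in any value below, comparisons with these other types included. Whether the replicates are separate animals is not stated, and the p-values therefore reflect a spread between libraries that may be only technical. In bulk RNA of sorted cells, fewer cells of a type and less RNA per cell cannot be told apart.

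R7 cells are the inner photoreceptors that express ultraviolet-sensitive rhodopsins. Their axons pass through the lamina and end deep in the medulla, where they release histamine. L3 cells receive histamine from the outer photoreceptors in the lamina and send an axon to a more superficial medulla layer, where the netrin they release is known to hold R8 axons. Growth cones of both kinds find their layer in the pupa, when guidance molecules, cadherins and immunoglobulin superfamily proteins on the cell surface are in use.

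Depth recovered from the steps between low RPKM values was 75.32 to 76.44 M reads in R7 and 64.99 to 80.93 M in L3, so that for a 2 kb gene 3 reads amount to 0.0185 to 0.0231 RPKM (counting error only). Across genes, the 2 R7 libraries correlated with an r of 0.995 and pairs of L3 libraries with an r of 0.938 to 0.982, and genes are not independent replicates. L3 replicates 1 and 2 stood apart from replicates 3 and 4. Mitochondrially encoded genes held 4.17 and 3.96% of reads in the first pair and 14.6 and 9.60% in the second, against 7.4 and 7.03% in R7. Between the means of these pairs, 914 genes differed by more than 2-fold.

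R7 and L3 differed at a majority of the genes tested, about equally often in each direction. In limma's test on log2(RPKM + 1), fitted over all 16 libraries of the series with a mean for each kind of neuron, 4761 genes (55.5%) had a Benjamini-Hochberg adjusted p under 0.05 and are said here to be called. Of these, 2413 (28.1%) were higher in R7 and 2348 (27.4%) were higher in L3. These shares are the background for the counts of each gene list below. The median log2 difference, always R7 minus L3 on the log2(RPKM + 1) scale, was 0.00376 over all genes tested. The libraries of the 2 groups did not overlap at 5792 genes (67.5%), with every R7 library above every L3 library at 2973 (34.7%) and below at 2819 (32.9%). Most of the large gaps lay on the L3 side, with 64 called genes more than 32-fold higher in L3 and 29 more than 32-fold higher in R7. Mean RPKM was at least 1 in both neurons for 6811 genes, only in R7 for 388 and only in L3 for 1218. The last 2 counts are not like for like. A gene present only in L3 met the rule with 2 of 4 libraries, whereas a gene present only in R7 needed both. In the whole table, 7204 and 7231 genes reached 1 RPKM in the R7 libraries and 7605 to 8422 in the L3 libraries. Without R7 replicate 1 the number of genes called was 3306, and without R7 replicate 2 it was 3300. Of the 329 genes that were called and belong to the gene lists or top genes described here, 260 kept the call with any single library of the 6 left out. The log2 difference is a test against 0, and 71 of those 260 were not called when a difference of more than 2-fold was required.

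**Figure D1:**
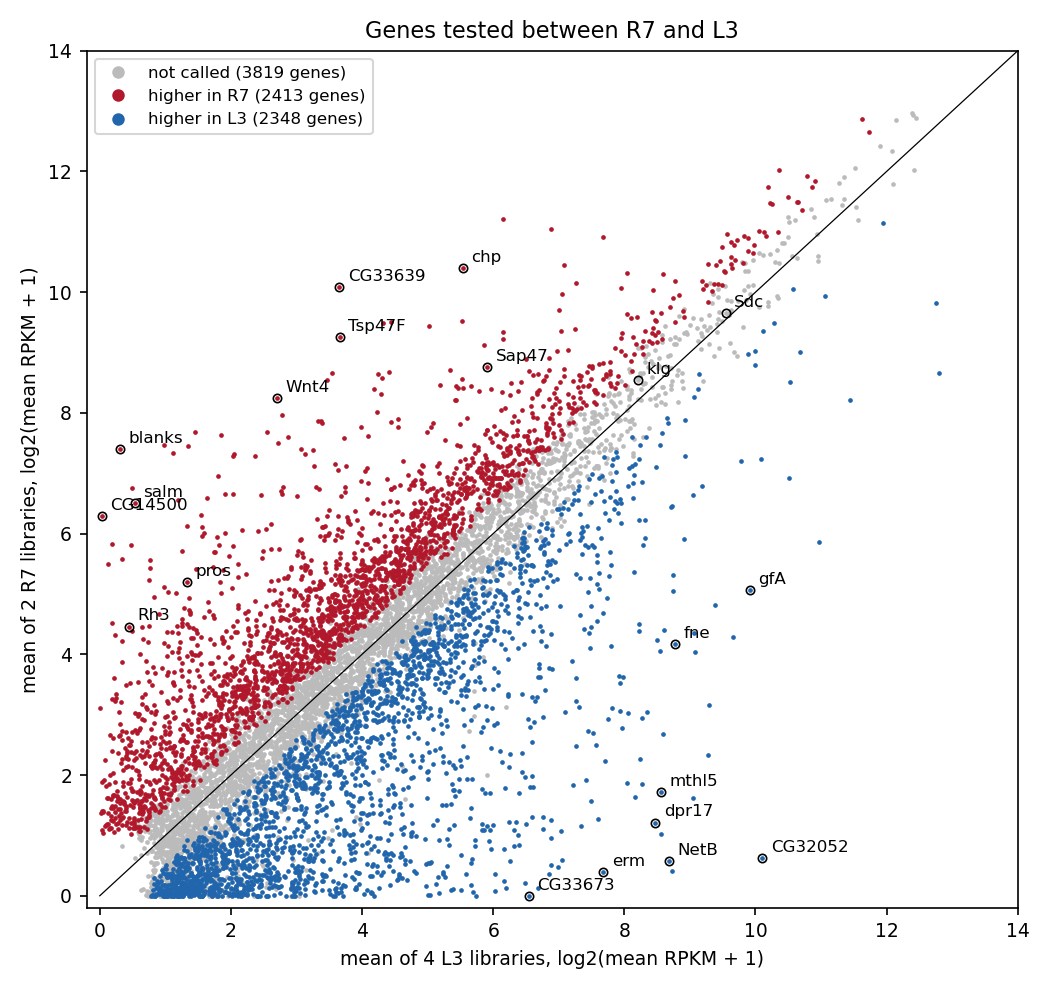
Mean level of each of the 8580 genes in L3 (x axis) and R7 (y axis), as log2(mean RPKM + 1), with genes higher in R7 in red, genes higher in L3 in blue and genes not called in grey; the line marks equal levels. NetB and CG32052 lie under 1 on the R7 axis and above 8 on the L3 axis, whereas blanks and CG14500 lie under 1 on the L3 axis.

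The markers of both neurons followed the labels, except Rh4, which was too low to test. The homeobox gene pros (FBgn0004595), which marks R7 among photoreceptors, stood at 36.5 and 34.6 RPKM in the R7 libraries and at 0.798, 1.94, 0.739 and 2.60 RPKM in the L3 libraries. The zinc finger gene erm (FBgn0031375), which marks L3 among lamina neurons, stood at 0.257 and 0.362 RPKM in R7 and at 237, 198, 131 and 250 RPKM in L3. Neither gene's values overlapped between the groups. The log2 difference was 3.93 ± 0.29 (SE) for pros, with an adjusted p of 1.57e-07, and -7.25 ± 0.22 for erm, with an adjusted p of 7.39e-11. The summed level of pros, run, ss, Rh3 and Rh4 was 75.0 to 79.1 RPKM in R7 and 1.14 to 4.03 RPKM in L3. Of these, Rh4 did not reach 1 RPKM in 2 of the 6 libraries and was not tested. The sum of erm and dac was 0.420 to 0.502 RPKM in R7 and 227 to 339 RPKM in L3.

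Defining markers of R8, glia and blood cells were low in both groups, while some genes on the longer lists and photoreceptor markers were higher than these in L3. The R8 markers sens, Rh5 and Rh6 were all under 1 RPKM in every one of the 6 libraries. The glial markers repo, moody and wrapper summed to 1.0 to 1.20 RPKM in R7 and 2.46 to 4.93 RPKM in L3. The blood cell markers Hml, NimC1, srp and He were each under 1 RPKM in all 6 libraries. Over the longer list of 13 glial genes, the sum was 26.5 to 30.1 RPKM in R7 and 17.1 to 59.3 RPKM in L3, with its highest value in L3 replicate 2, and of the 9 genes tested 1 was higher in R7 and 5 in L3 (3 without R7 replicate 1 or 2). Photoreceptor markers (gl, Pph13, oc and chp) summed to 1566 and 1624 RPKM in R7 and to 30.2, 65.9, 60.2 and 71.1 RPKM in L3. The longer list of 9 blood cell genes summed to 25.9 and 27.9 RPKM in R7 and to 83.8 to 199 RPKM in L3, and all 4 of its genes tested were called, 1 higher in R7 (crq) and 3 in L3 (Pxn, vkg and Cg25C, a collagen gene like vkg, whose own call was lost without R7 replicate 1 or 2). The list of 9 cone and pigment cell genes summed to 73.1 to 82.5 RPKM in R7 and 121 to 180 RPKM in L3, most of it from w. The peroxidase gene Pxn had 0.268 and 0.517 RPKM in R7 and 158, 116, 59.6 and 170 RPKM in L3. The part of other cells in any result below was not tested.

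The widest gaps in favour of R7 included genes of inner photoreceptor identity and several genes without an assigned name. The gene blanks (FBgn0035608), which codes for a double-stranded RNA binding protein needed in the male germline, had 169 and 167 RPKM in R7 and 0.205, 0.206, 0.0213 and 0.525 RPKM in L3. That is a log2 difference of 7.11 ± 0.21 with an adjusted p of 4.74e-11. CG33639 (FBgn0053639) reached 1101 and 1069 RPKM in R7 against 6.64, 13.2, 6.20 and 20.3 RPKM in L3. CG14500 (FBgn0034318) was at or near 0 in L3, at 0.0547, 0.0227, 0 and 0 RPKM, against 69.5 and 85.5 RPKM in R7. The tetraspanin gene Tsp47F (FBgn0033629), a membrane protein gene, had 622 and 594 RPKM in R7 and 4.24, 26.1, 5.03 and 11.2 RPKM in L3, with the widest error of the 10 widest gaps (5.91 ± 0.64). The others of these 10 were CG16959, CG31636, CG10650, salr, isoQC (a glutaminyl cyclase gene) and salm, with log2 differences of 5.98 to 6.53. Reads of isoQC are uncertain, since 17.4% of its exonic bases overlap other genes in the current annotation.

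The widest gaps in favour of L3 named a guidance cue, a recognition molecule and a channel subunit. CG32052 (FBgn0044328) was near 0 in R7, with 0.537 and 0.556 RPKM, and reached 1036, 905, 1221.5 and 1243 RPKM in L3, a log2 difference of -9.47 ± 0.19 with an adjusted p of 6.76e-12. NetB (FBgn0015774), which codes for the secreted guidance cue Netrin-B, had 0.60 and 0.385 RPKM in R7 and 534, 353, 368 and 384 RPKM in L3. For dpr17 (FBgn0051361), a cell surface protein of the immunoglobulin superfamily, the values were 1.43 and 1.21 RPKM in R7 and 338, 384, 354 and 342 RPKM in L3. None of these genes reached 2 RPKM in an R7 library, and none was below 300 RPKM in an L3 library. The cyclic nucleotide-gated channel gene cngl (FBgn0263257) had 0.890 and 1.17 RPKM in R7 and 366, 304, 386 and 445 RPKM in L3. CG15537 (FBgn0039770) varied among the L3 libraries, at 712, 448, 120 and 411 RPKM, and had 0.526 and 0.145 RPKM in R7. CG33673 (FBgn0053673) was listed at 0 in both R7 libraries and had 98.4, 105, 85.5 and 79.1 RPKM in L3. The rest of these 10 were CG2016 (also Jhbp2), erm, the receptor gene mthl5 and a 5.8S ribosomal RNA gene, with log2 differences of -7.45 to -6.81. Reads of that ribosomal gene are uncertain, since all of its exonic bases overlap other genes.

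To ask which gaps go beyond those between photoreceptors and lamina neurons at large, the R7 minus L3 difference was set against the difference between R8 and the mean of L1, L2, L4 and L5 in the same fit. This second contrast called 1510 genes (17.6%), 531 with a positive value (6.19%) and 979 with a negative value (11.4%). After quantile normalization the split was 921 positive and 789 negative. Without R7 replicate 1 the second contrast called 940 genes, and without R7 replicate 2 it called 926. Within their own classes, R7 differed from R8 at 807 genes (9.41%), and L3 differed from the mean of the other lamina types at 2017 genes (23.5%).

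Among genes called in both contrasts with the same sign, those of R7 with the widest second contrast were CG4783, CG33639, CG14500, comm, blanks and Ir76a. CG4783 (FBgn0038756) had 43.1 and 45.6 RPKM in R7 and 0.0642, 0.0400, 0.0703 and 0.170 RPKM in L3, with a second contrast of 6.62 and an adjusted p of 1.17e-06. In R8 it averaged 0.349 RPKM. The gene comm (FBgn0010105), whose protein sorts the guidance receptor Robo away from the axon surface, had 139 and 137 RPKM in R7 and 10.8, 15.4, 3.49 and 5.00 RPKM in L3. L1, L2 and L4 averaged 266, 277 and 419 RPKM of comm, so the low level of L3 was shared by L5 (3.56 RPKM) and not by the other lamina types. The second contrast of comm was 5.59, with an adjusted p of 7.72e-06. Ir76a, a gene of the ionotropic receptor family, had 52.4 and 50.6 RPKM in R7 and 10.0, 9.37, 4.31 and 4.85 RPKM in L3, and 14.1% of its exonic bases overlap other genes.

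On the L3 side the widest second contrasts were those of CG2016, ImpL1, CG34247, CG32052, NetB and CG11997. CG2016 (FBgn0250839) had 1.49 and 2.62 RPKM in R7 and 548, 528, 605 and 428 RPKM in L3, against 90.3 RPKM in R8 and 8.33 to 87.8 RPKM in the other lamina types. Its second contrast was -9.11, with an adjusted p of 7.12e-10. NetB averaged 2.35 RPKM in R8 and 0.991 to 6.47 RPKM in the other lamina types, so its high level stood out for L3 within the lamina (log2 difference of L3 from the other lamina types 7.06, adjusted p 3.77e-12). CG32052 was also high in L5, at 728 RPKM. For ImpL1, CG34247 and CG11997, R7 was below R8 and R8 was above the mean of the other lamina types, by 3.64, 2.88 and 3.85 on the log2 scale. For CG11997 the R7 libraries overlapped those of L1, which had 3.68 and 6.18 RPKM. ImpL1 (FBgn0001256), an ecdysone-inducible gene, had 2.04 and 9.71 RPKM in R7, 148, 440, 196 and 207 RPKM in L3 and a mean of 1492.5 RPKM in R8, and R7 was below R8 by 8.03 on the log2 scale with an adjusted p of 2.20e-06. The R7 libraries themselves differed from each other for these genes, at 0.437 and 7.79 RPKM for CG11997 and 0.0740 and 2.22 RPKM for CG34247.

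Transcription factor genes separated the neurons by class. Of the 13 genes tested on the R7 fate list, which also holds photoreceptor genes not particular to R7, 9 were higher in R7 and 2 in L3. The median log2 difference was 3.58. The runt-domain gene run, which acts in R7 and R8 specification, had 12.3 and 10.1 RPKM in R7 and 0.0600 to 0.268 RPKM in L3. The gene ss, which sets the choice between the 2 kinds of R7, had 8.70 and 7.87 RPKM in R7 and 0.200, 0.296, 0.0208 and 0.507 RPKM in L3. Both were also higher in R7 than in R8, by 2.64 (run, adjusted p 1.84e-06) and 1.79 (ss, adjusted p 7.40e-05) on the log2 scale. The spalt genes salm and salr, which separate inner from outer photoreceptors, had 90.7 and 89.6 RPKM and 172 and 149 RPKM in R7. In L3 salm was at 0.297 to 0.645 RPKM and salr at 0.464 to 1.73 RPKM. The photoreceptor genes gl (106 and 112 RPKM in R7, 5.14 to 6.85 in L3), Pph13 (100 and 100 against 1.62 to 3.99) and oc (41.7 and 40.6 against 1.26 to 3.86) were higher in R7 as well. So was boss, a member of the list that served here as a marker of neither R7 nor R8, with a log2 difference of 3.72 and an adjusted p of 1.69e-05 by limma. Of the 2 genes higher in L3, lz lost its call without any of 5 libraries (adjusted p 0.0583 to 0.129) and phyl kept its call throughout. The gene phyl, whose product helps degrade a neural repressor when R7 is specified, had 1.28 and 1.62 RPKM in R7 and 60.7, 48.4, 33 and 53.5 RPKM in L3 (log2 difference -4.32 ± 0.21, adjusted p 3.71e-09). Its partner sina was at 32.6 and 30.8 RPKM in R7 and 29.0 to 40.2 RPKM in L3 and was not called (adjusted p 0.75).

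The eye identity list had 9 genes tested, 6 of them higher in R7 and 2 in L3. Of the latter, onecut lost its call without R7 replicate 2 (adjusted p 0.315) and elav without any of 4 libraries (0.0694 to 0.162). The retinal determination gene toy had 47.4 and 48.0 RPKM in R7 and 4.26, 6.98, 10.5 and 8.68 RPKM in L3. Its partners in eye specification, so and eya, had 12.1 and 12.4 RPKM and 17.1 and 11.6 RPKM in R7, against 1.30 to 3.09 and 3.08 to 5.55 RPKM in L3. None of these values overlapped.

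None of the 14 lamina transcription factor genes tested was higher in R7, and 11 were higher in L3 (median -2.07). The gene dac had 0.163 and 0.140 RPKM in R7 and 87.5, 82.7, 95.8 and 88.7 RPKM in L3, with a log2 difference of -6.28 ± 0.18 and an adjusted p of 3.30e-11. The homeobox gene scro followed, with 0.720 and 0.828 RPKM in R7 and 79.8, 88.8, 80.6 and 66.2 RPKM in L3. The levels of sim (13.7 to 18.6 RPKM), zfh1 (11.3 to 21 RPKM) and slp1 (16.4 to 19.8 RPKM) in L3 were lower but above every R7 value (at most 0.0412, 0.464 and 1.86 RPKM). The L4 and L5 gene bsh had 5.45 to 6.92 RPKM in L3 and 1.08 and 0.863 RPKM in R7, against means of 510 RPKM in L4 and 304 RPKM in L5. The L4 gene ap was not called, at 0.825 to 1.60 RPKM in L3 and 0.812 and 0.686 RPKM in R7, nor was bab1, and bab2 lost its call without R7 replicate 1 or 2 (adjusted p 0.15 and 0.0543).

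**Figure D2:**
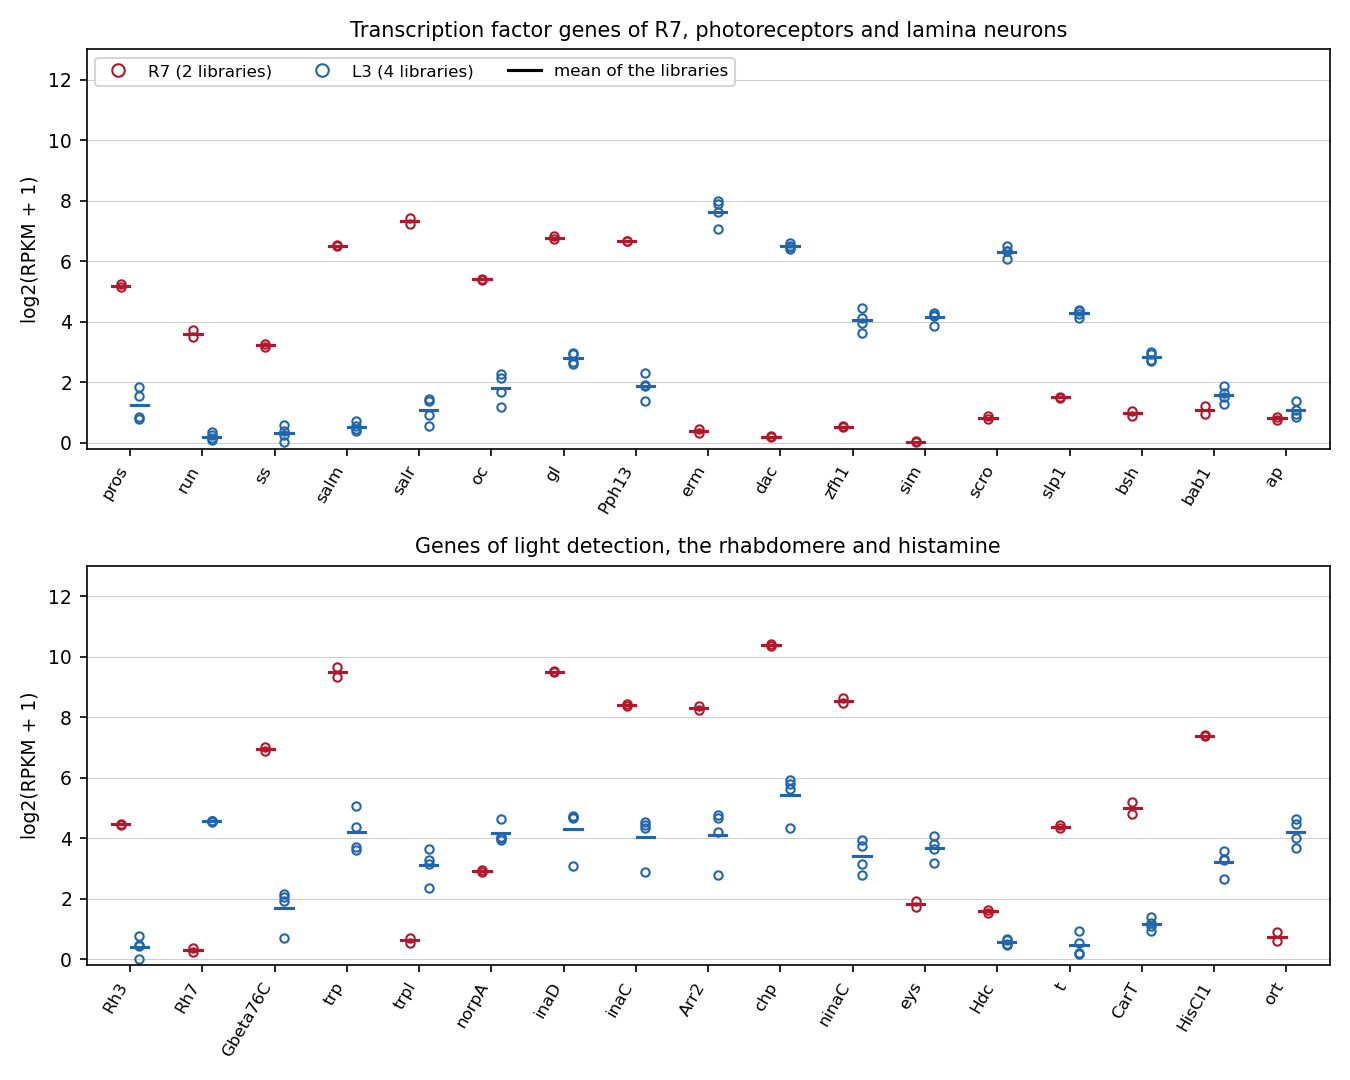
Level in each library, as log2(RPKM + 1), of transcription factor genes (upper panel) and of genes of light detection and histamine (lower panel), with 2 R7 libraries in red, 4 L3 libraries in blue and bars at the mean. R7 libraries lie above L3 libraries from pros to Pph13 and below them from erm to bsh, and Rh7, trpl, norpA, eys and ort lie higher in L3 than in R7.

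Genes of light detection were mostly higher in R7, and some were higher in L3. Phototransduction genes were higher in R7 for 12 of 21 tested and in L3 for 6 (median 1.5). The R7 share was above its background of 28.1%, while the L3 share was close to its background of 27.4%. The ultraviolet-sensitive rhodopsin gene Rh3 had 20.6 and 21.4 RPKM in R7 and 0.705, 0.385, 0 and 0.345 RPKM in L3 (log2 difference 4.04 ± 0.25, adjusted p 3.38e-08). Rh7, a rhodopsin gene known from pacemaker neurons of the brain, had the reverse pattern, with 0.192 and 0.304 RPKM in R7 and 22.9, 22.9, 22.7 and 22.0 RPKM in L3 (log2 difference -4.24 ± 0.17, adjusted p 4.77e-10). Rh7 averaged 31.8 RPKM in L1 and 67.8 RPKM in L5. The remaining 5 rhodopsin genes, the R7 marker Rh4 among them, did not reach 1 RPKM in 2 of the 6 libraries.

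The light-gated channel gene trp had 643 and 798 RPKM in R7 and 11.3, 32.2, 12.1 and 19.9 RPKM in L3, a log2 difference of 5.29 ± 0.47 with an adjusted p of 9.62e-07. The second channel of the cascade, trpl, was low in R7 at 0.453 and 0.637 RPKM and had 7.94, 8.62, 4.16 and 11.4 RPKM in L3 (log2 difference -2.48 ± 0.27, adjusted p 7.58e-06). The 2 channel genes thus differed in opposite directions. The scaffold gene inaD (716 and 734 RPKM), the kinase C gene inaC (327 and 342 RPKM), the arrestin gene Arr2 (330 and 304 RPKM) and the G protein subunit gene Gbeta76C (130 and 117 RPKM) were high in R7. In L3 these 4 genes held 2.03 to 5.88% of their R7 means. The G protein subunit gene Galpha49B, also Galphaq, was not called (52.9 and 47.2 RPKM in R7, 40.8 to 53.2 RPKM in L3), and 44.1% of its exonic bases overlap other genes. The phospholipase C gene norpA had 6.76 and 6.31 RPKM in R7 and 14.5 to 24.0 RPKM in L3 (adjusted p 0.011), a call lost without R7 replicate 1 (adjusted p 0.0574) or R7 replicate 2 (0.0732). Without either of these libraries, 3 phototransduction genes were higher in L3. The exchanger gene Calx, which was among them, had 0.288 and 0.298 RPKM in R7 and 4.05 to 6.06 RPKM in L3.

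Genes that build the rhabdomere, the light-sensing stack of membrane, were higher in R7 for 8 of 13 tested and higher in L3 for 2 (median 1.73). The surface glycoprotein gene chp had 1318 and 1371 RPKM in R7 and 19.3, 54.6, 48.9 and 59.1 RPKM in L3, and the myosin gene ninaC had 354 and 394 RPKM in R7 and 5.89 to 14.2 RPKM in L3. The L3 level of chp was itself higher than in the other lamina types, by 3.0 on the log2 scale (adjusted p 3.27e-05). The prominin gene prom, whose product keeps the membrane stacks apart together with that of eys, had 163 and 174 RPKM in R7 and 3.06 to 11 RPKM in L3. Its partner eys showed the reverse, with 2.35 and 2.77 RPKM in R7 and 15.7, 11.6, 8.17 and 12.9 RPKM in L3 (log2 difference -1.85 ± 0.23, adjusted p 2.24e-05). In R8 eys averaged 19.99 RPKM, and its second contrast was -5.10 with an adjusted p of 2.09e-07. The other gene higher in L3, Myo61F, was low, at 0.592 to 1.39 RPKM in L3, and lost its call without any 1 of 4 libraries, L3 replicates 1 and 4 and R7 replicates 1 and 2 (adjusted p 0.0519 to 0.121).

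All 7 genes tested of histamine use and gap junctions differed, 4 higher in R7 and 3 in L3. Of the 4 higher in R7, Hdc, CG9317 and t serve to make and recycle histamine, and HisCl1 codes for a receptor. The synthesis gene Hdc was low in both, at 2.11 and 1.89 RPKM in R7 and 0.383 to 0.592 RPKM in L3. The transporter gene CG9317, also CarT, had 35.9 and 27.0 RPKM in R7 and 0.923 to 1.65 RPKM in L3. The hydrolase gene t (tan) had 20.7 and 19.0 RPKM in R7 and 0.13 to 0.905 RPKM in L3. The histamine-gated chloride channel genes split between the neurons. HisCl1 had 164 and 168 RPKM in R7 and 5.31, 9.04, 10.9 and 8.82 RPKM in L3 (log2 difference 4.17 ± 0.25, adjusted p 2.10e-08). The other channel gene, ort, had 0.507 and 0.851 RPKM in R7 and 23.7, 21, 11.9 and 15.0 RPKM in L3 (log2 difference -3.45 ± 0.24, adjusted p 9.31e-08). L3 was also above the mean of the other lamina types for ort, by 2.06 on the log2 scale (adjusted p 9.97e-07). The innexin genes ogre and Inx2, which code for gap junction subunits, were the others higher in L3, with 3.0 to 9.32 RPKM and 3.96 to 5.63 RPKM there and at most 0.201 and 1.64 RPKM in R7. For ogre, 10.2% of exonic bases overlap other genes.

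Genes for other transmitters were higher in L3 for 7 of 11 tested and higher in R7 for 1. The share called was 72.7%, against 55.5% of all genes tested. Among the 7, Eaat1, Gs2 and CG1732, also Gat, are on the list of glial genes too. Which cells these transcripts came from was not tested. The genes for making and packaging acetylcholine were near 0 in R7. The choline acetyltransferase gene Cha had 0.570 and 0.525 RPKM in R7 and 17.7, 17.5, 19.4 and 23.5 RPKM in L3, and the vesicular transporter gene VAChT had 0.373 and 0.542 RPKM in R7 and 30.2, 24.7, 24.6 and 47.1 RPKM in L3 (log2 difference -4.44 ± 0.23, adjusted p 5.99e-09). Part of Cha (15.1% of exonic bases) overlaps other genes. The vesicular GABA transporter gene VGAT was also higher in L3, at 6.86 to 12.8 RPKM against 0.183 and 0.351 RPKM. The vesicular glutamate transporter gene VGlut was not called, and its highest value was 11.8 RPKM in L3 replicate 2 against 2.40 to 2.87 RPKM in the other L3 libraries. The glutamate transporter gene Eaat2 was the 1 gene higher in R7, with 101 and 104.4 RPKM there and 5.32, 7.43, 3.94 and 6.38 RPKM in L3 (log2 difference 3.97 ± 0.24, adjusted p 2.70e-08).

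Receptors for acetylcholine were higher in L3 for 8 of 12 genes tested and in R7 for none, with a median of -3.93. The nicotinic subunit gene gfA, also nAChRalpha7, had 30.7 and 34.3 RPKM in R7 and 938, 984, 947 and 999.7 RPKM in L3 (log2 difference -4.86 ± 0.22, adjusted p 1.63e-09). R8 averaged 983 RPKM of gfA, so R7 was below R8 by 4.88 on the log2 scale (adjusted p 1.40e-07). The subunit genes nAChRalpha1 and nAChRalpha2 had at most 0.161 and 1.11 RPKM in R7 and 43.8 to 54.7 and 101 to 134 RPKM in L3. The beta subunit gene nAChRbeta1 had 6.07 and 8.35 RPKM in R7 and 298 to 361 RPKM in L3. The muscarinic genes mAChR-A and mAChR-B were higher in L3 too, at 19.2 to 54.8 and 12.7 to 15.3 RPKM. The subunit genes nAChRalpha4, nAChRalpha5, nAChRalpha6 and nAChRbeta3 were not called, and each was at most 10.9 RPKM in any of the 6 libraries. For nAChRbeta3 all exonic bases overlap other genes.

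All 13 glutamate and GABA receptor genes tested were called, 10 higher in L3 and 3 in R7 (median -2.15). The glutamate-gated chloride channel gene GluClalpha had 0.953 and 1.59 RPKM in R7 and 56.9, 64.2, 47.6 and 54.3 RPKM in L3. The kainate-type receptor gene CG3822, also KaiR1D, had 2.28 and 3.05 RPKM in R7 and 327, 257, 212 and 247 RPKM in L3 (log2 difference -6.15 ± 0.19, adjusted p 6.61e-11). The GABA-B receptor genes split, with GABA-B-R1 at 23.6 to 28.2 RPKM and GABA-B-R2 at 132 to 173 RPKM in L3 against at most 1.25 and 8.19 RPKM in R7. GABA-B-R3 was higher in R7, at 6.03 and 5.55 RPKM against 1.0 to 2.5 RPKM. The widest gap in favour of R7 was that of CG9935, also ekar, a kainate-type receptor gene known to act in photoreceptor terminals, with 379 and 380 RPKM in R7 and 15.5, 19.7, 22.6 and 17.3 RPKM in L3 (log2 difference 4.28 ± 0.23, adjusted p 9.13e-09). The call for GluRIA was lost without any of 4 libraries (adjusted p 0.055 to 0.137) and that for GluRIB without any of 3 (0.0502 to 0.121), both R7 libraries among them in each case.

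**Figure D3:**
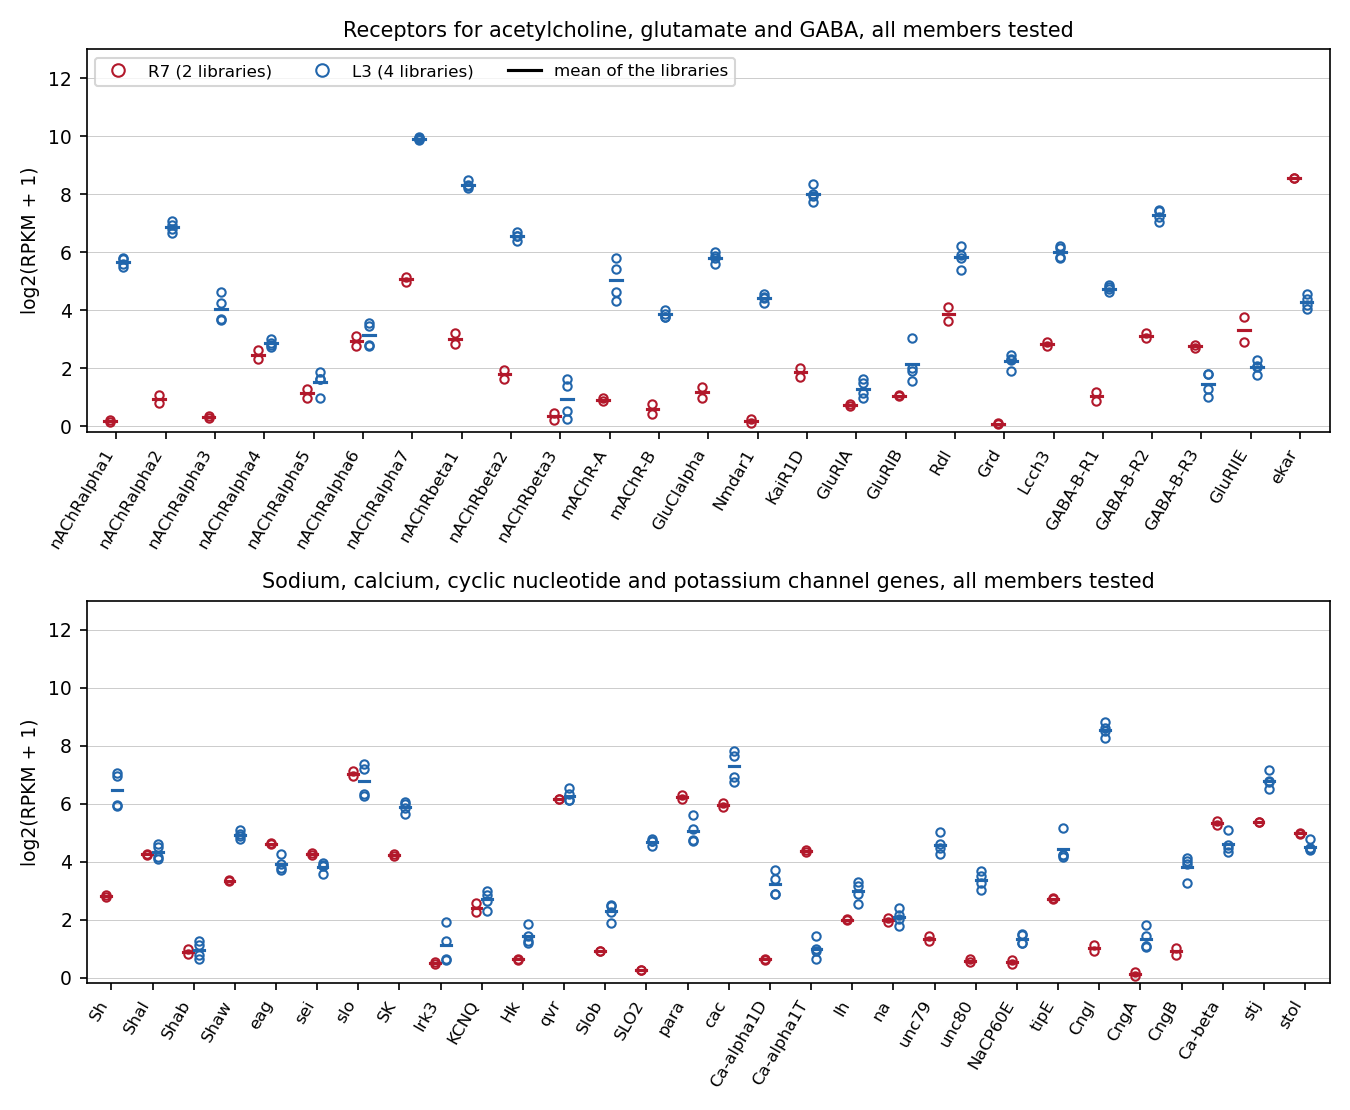
Level in each library, as log2(RPKM + 1), of all tested receptor genes for acetylcholine, glutamate and GABA (upper panel) and of all tested sodium, calcium, cyclic nucleotide and potassium channel genes (lower panel), with R7 in red, L3 in blue and bars at the mean. Most L3 points lie above the R7 points, and ekar and Ca-alpha1T lie higher in R7.

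Receptor genes for amines and peptides were higher in L3 for 9 of 14 tested and in R7 for 2. Both R7 genes code for octopamine receptors, Octbeta3R with 81.8 and 81.5 RPKM in R7 against 22.9, 21.4, 13.5 and 10.2 RPKM in L3, and Octbeta2R with 4.96 and 5.20 against 1.04 to 2.30 RPKM. The peptide receptor gene sNPF-R had 0.507 and 0.729 RPKM in R7 and 26.1, 17.9, 13.1 and 23.0 RPKM in L3 (log2 difference -3.66 ± 0.41, adjusted p 9.17e-06). The dopamine receptor genes Dop1R1 (DopR in the table) and Dop2R (D2R) and the serotonin receptor genes 5-HT1B and 5-HT2A (5-HT2) were higher in L3 but low, at 1.05 to 3.73 RPKM.

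Channel genes favoured L3, with the calcium and sodium channels split by subunit. Of the 16 genes tested for sodium, calcium and cyclic nucleotide channels, 11 were higher in L3 and 3 in R7 (median -1.27). The calcium channel gene cac, which serves transmitter release, had 63.4 and 58.4 RPKM in R7 and 107, 119, 223 and 199 RPKM in L3 (log2 difference -1.33 ± 0.31, adjusted p 0.0027). The gene of the T-type channel, Ca-alpha1T, had 19.3 and 20.05 RPKM in R7 and 0.560, 0.991, 0.884 and 1.70 RPKM in L3 (log2 difference 3.37 ± 0.26, adjusted p 2.26e-07). That of the L-type channel, Ca-alpha1D, had 0.536 and 0.563 RPKM in R7 and 6.33 to 12.2 RPKM in L3. The sodium channel gene para was higher in R7, at 77.9 and 70.9 RPKM against 25.2, 25.7, 33.9 and 47.3 RPKM (adjusted p 0.018), and the call was lost without R7 replicate 1 (0.103) or R7 replicate 2 (0.0721). With either left out, Ca-alpha1T was the 1 gene of the list higher in R7. The auxiliary genes unc79 and unc80 of the NALCN-type leak channel had 18 to 31.2 and 7.12 to 11.8 RPKM in L3 and at most 1.72 and 0.572 RPKM in R7, whereas its pore gene na was not called (2.78 and 3.18 RPKM in R7, 2.40 to 4.27 RPKM in L3).

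Among 14 potassium channel genes tested, 6 were higher in L3 and 2 in R7, and without either R7 library none was higher in R7. In both directions together 57.1% were called, close to the 55.5% of all genes tested. The Shaker channel gene Sh had 5.79 and 6.13 RPKM in R7 and 58.9, 60.9, 132 and 124 RPKM in L3, with the higher values in L3 replicates 3 and 4 (log2 difference -3.67 ± 0.33, adjusted p 9.62e-07). The sodium-activated channel gene CG42732, also SLO2, had 0.187 and 0.209 RPKM in R7 and 22.3 to 26.3 RPKM in L3. The channel genes Shal (18.3 and 17.9 RPKM in R7, 15.8 to 23.5 in L3) and slo (137 and 122 in R7, 75.6 to 165 in L3) were not called.

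The dpr genes code for surface proteins of the immunoglobulin superfamily whose binding partners are the DIP proteins. All 21 dpr genes were tested, and 14 were higher in L3, 2 in R7 and 5 were not called, with a median log2 difference of -2.76. In L3 dpr17 has been given above, and dpr3 followed with 0.370 and 0.473 RPKM in R7 and 114.5, 117, 125 and 111 RPKM in L3 (log2 difference -6.37 ± 0.23, adjusted p 2.26e-10). The gene dpr6 had 1.15 and 1.39 RPKM in R7 and 71.5, 73.0, 89.6 and 125 RPKM in L3. Some dpr genes were high in both neurons. For dpr8 the values were 40.7 and 36.8 RPKM in R7 and 434, 341, 282 and 648 RPKM in L3, and for dpr1 (listed as dpr) 41.2 and 39.3 RPKM in R7 and 319, 241, 311 and 257 RPKM in L3. Only dpr9 and dpr11 were higher in R7 by the test. The gene dpr11 had 8.34 and 10.4 RPKM in R7 and 0.919, 0.774, 0.599 and 1.36 RPKM in L3 (log2 difference 2.44 ± 0.25, adjusted p 3.59e-06), and dpr9 had 24.3 and 26.6 RPKM in R7 and 3.35, 3.61, 3.02 and 5.10 RPKM in L3 (2.49 ± 0.37, adjusted p 9.53e-05). R7 was above R8 for dpr11, by 1.48 on the log2 scale (adjusted p 0.0047).

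The dpr genes that were not called spanned the range of levels. The gene dpr7 had 136 and 141 RPKM in R7 and 223, 235, 174 and 133 RPKM in L3, and dpr21 (CG42596) had 129 and 110 RPKM in R7 and 107, 130, 51.5 and 40.1 RPKM in L3. For dpr19 the values were 25.6 and 26.4 RPKM in R7 and 22.2 to 27.1 RPKM in L3, while dpr13 and dpr20 were at most 5.15 RPKM in any of these libraries. The call for dpr18 was lost without any of 5 libraries (adjusted p 0.0713 to 0.161). In the second contrast 9 of the 21 dpr genes were called with a negative and 4 with a positive value, against 11.4% and 6.19% of all genes tested. Those with the widest negative values were dpr17 (-7.12, adjusted p 7.12e-10), dpr3 (-5.21, adjusted p 1.69e-07) and dpr16 (-3.99, adjusted p 1.06e-06). The gene dpr16 had 1.22 and 1.39 RPKM in R7, 17.7 to 32.0 RPKM in L3 and a mean of at most 1.03 RPKM in each of the other 5 types. Of the 10 DIP genes, 8 did not reach 1 RPKM in 2 of the 6 libraries. The remaining 2, DIP-alpha (CG32791) and DIP-gamma (CG14521), were not called, at 4.07 and 4.28 RPKM in R7 and 0.699 to 5.90 RPKM in L3 for DIP-alpha and at most 2.02 RPKM for DIP-gamma.

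**Figure D4:**
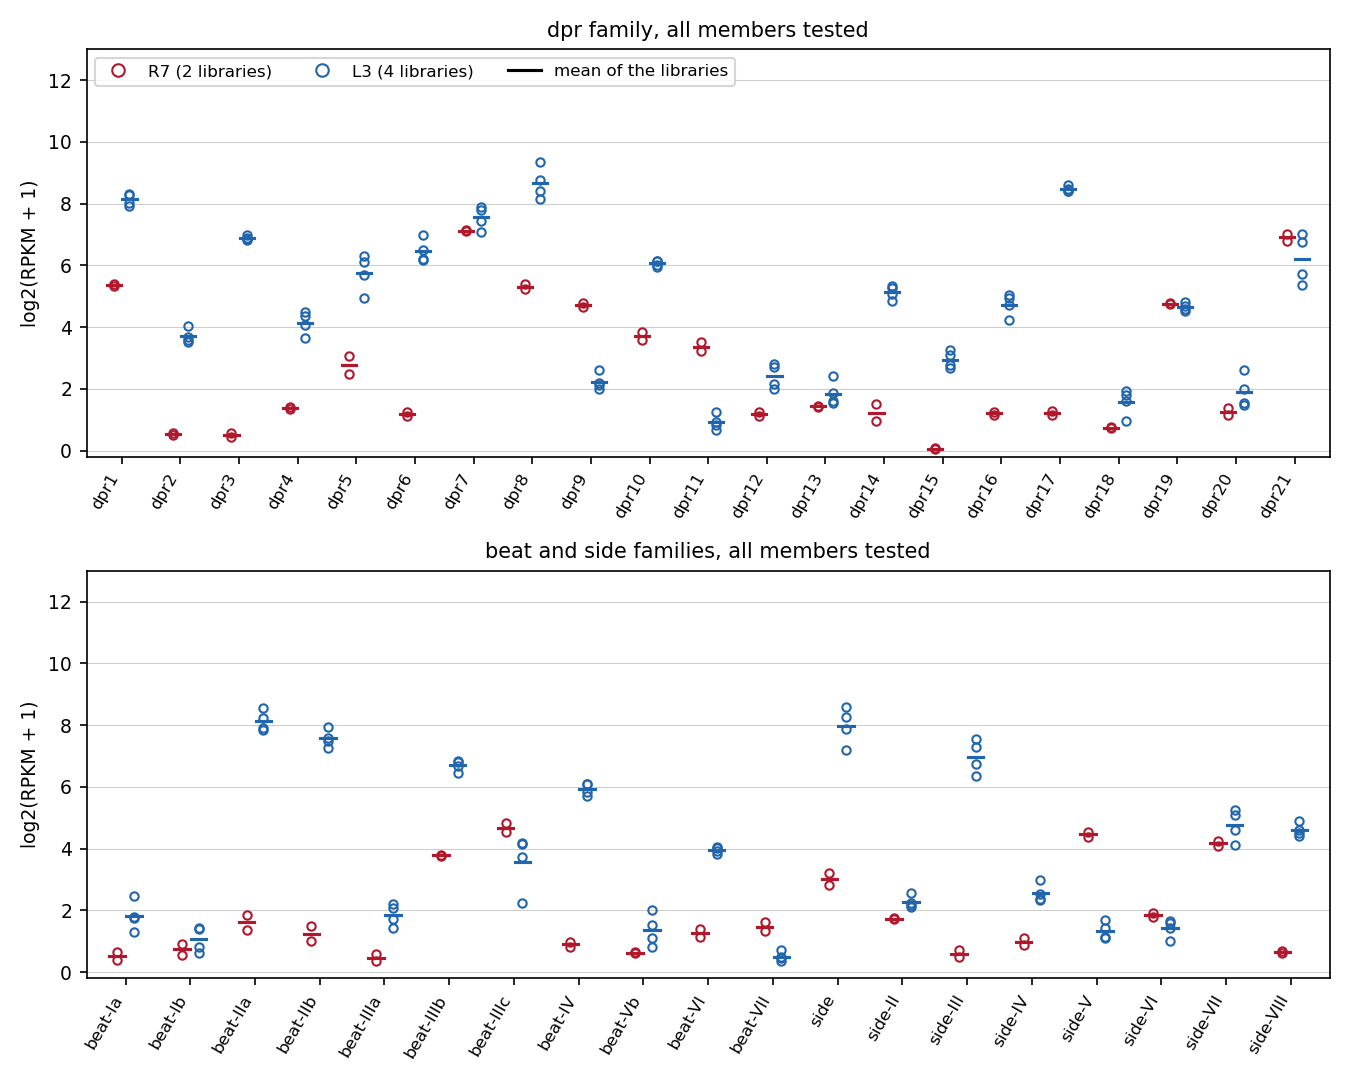
Level in each library, as log2(RPKM + 1), of all 21 dpr genes (upper panel) and of all tested beat and side genes (lower panel), with R7 in red, L3 in blue and bars at the mean. The R7 points of dpr9, dpr11, beat-VII and side-V lie above all L3 points, and those of dpr17, dpr3, beat-IIa and side-III lie below all L3 points by more than 5 units.

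The beat genes and the side genes code for a second pair of binding families of the immunoglobulin superfamily. Of the 11 beat genes tested, 8 were higher in L3 and 1 in R7 (median -1.39), so that 81.8% were called, against 55.5% of all genes tested. The gene beat-IIa had 1.59 and 2.63 RPKM in R7 and 375, 302, 238 and 230 RPKM in L3 (log2 difference -6.52 ± 0.23, adjusted p 1.94e-10). For its neighbour in the family, beat-IIb, the values were 1.02 and 1.79 RPKM in R7 and 191, 154, 177 and 247 RPKM in L3. L4 was high as well, with means of 146 RPKM of beat-IIa and 203 RPKM of beat-IIb, and no other type averaged more than 8.39 RPKM of either. The gene beat-IV had 0.774 and 0.964 RPKM in R7 and 51.1 to 66.5 RPKM in L3, and beat-IIIb had 12.6 and 12.9 RPKM in R7 and 87.2 to 113 RPKM in L3. The 1 beat gene higher in R7, beat-VII, was low, at 1.51 and 2.04 RPKM against 0.268 to 0.654 RPKM. The gene beat-IIIc had every R7 library above every L3 library (22.3 and 27.2 against 17, 16.6, 3.67 and 12.1 RPKM) and was not called (adjusted p 0.16).

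Of the 8 side genes, 5 were higher in L3 and 1 in R7 (median -1.09), so that 75% were called, against 55.5% of all genes tested. The gene side had 6.03 and 8.33 RPKM in R7 and 380, 306, 146 and 232 RPKM in L3 (log2 difference -4.96 ± 0.40, adjusted p 3.93e-07). The gene CG34113, also side-III, had 0.391 and 0.638 RPKM in R7 and 79.8, 107, 156 and 185 RPKM in L3, and CG12484, also side-VIII, had 0.544 and 0.611 RPKM in R7 and 20.1 to 28.4 RPKM in L3. The reverse held for CG34371, also side-V, with 19.97 and 22.1 RPKM in R7 and 1.18, 2.25, 1.16 and 1.67 RPKM in L3 (log2 difference 3.12 ± 0.20, adjusted p 5.21e-08). R8 averaged 3.43 RPKM of side-V and L5 averaged 179 RPKM, so R7 was not its highest site in the series.

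Genes known for steering photoreceptor and lamina axons to their layers were higher in L3 for 13 of 22 tested and in R7 for 3 (median -0.87). Their share called was 72.7%, against 55.5% of all genes tested. The leucine-rich repeat genes caps and trn, which act in layer choice, had 1.46 and 2.22 RPKM and 0.672 and 1.39 RPKM in R7, against 21.7, 24.8, 30.8 and 25.7 RPKM and 31.8, 23.2, 10.5 and 17.6 RPKM in L3. Their log2 differences were -3.24 ± 0.18 (caps, adjusted p 9.33e-09) and -3.34 ± 0.35 (trn, adjusted p 5.04e-06). The receptor gene gogo and the cadherin gene stan, which act together in R8 axons, had 18.5 and 15.3 RPKM and 31.4 and 28.5 RPKM in R7, and 36.6 to 63.3 and 72.9 to 95.6 RPKM in L3. The N-cadherin gene CadN, needed by both R7 and lamina axons, was high in both at 122 and 119 RPKM in R7 and 197, 148, 241 and 192 RPKM in L3. It passed the test (adjusted p 0.019) but not without R7 replicate 1 (0.0864) or R7 replicate 2 (0.104). The phosphatase gene Lar, which holds R7 axons in their layer, had 17.4 and 15.1 RPKM in R7 and 25.3 to 28.4 RPKM in L3, a call lost without R7 replicate 2 (adjusted p 0.0517), and 83.6% of its exonic bases overlap other genes. The related gene Ptp69D was not called (5.48 and 6.25 RPKM in R7, 5.41 to 8.77 RPKM in L3).

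The receptor gene Alk, through which medulla neurons respond to the photoreceptor signal Jelly belly, had 1.14 and 1.53 RPKM in R7 and 91.1, 79.8, 57.6 and 71.6 RPKM in L3 (log2 difference -5.01 ± 0.21, adjusted p 1.06e-09). The ligand gene jeb itself was high in both and not called, at 183 and 175 RPKM in R7 and 243, 201, 156 and 192 RPKM in L3. The activin gene Actbeta, known to be supplied by R7 cells and to act back on R7 growth, had 112 and 99.4 RPKM in R7 and 20.9, 23.2, 24.9 and 14.4 RPKM in L3 (log2 difference 2.31 ± 0.21, adjusted p 1.10e-06). Its receptor gene babo was not called, at 75.2 and 66.2 RPKM in R7 and 48.5 to 67.7 RPKM in L3. The Toll receptor gene Tl was higher in R7 than in L3, at 23.1 and 23.5 against 4.29, 5.65, 7.62 and 6.10 RPKM, and the other 4 lamina types averaged 54.9 to 75.5 RPKM.

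Among guidance cues and receptors, 10 of 22 genes tested were higher in L3 and 4 in R7 (median -0.56). In both directions together 63.6% were called, against 55.5% of all genes tested. The share higher in R7 was below the 28.1% of all genes. The second netrin gene, NetA, was listed at 0 in both R7 libraries and had 16.9, 11.6, 8.76 and 6.91 RPKM in L3 (adjusted p 2.82e-06). Of the netrin receptor genes fra and unc-5, only unc-5 was called. The attractive receptor gene fra had 9.63 and 8.71 RPKM in R7 and 5.97 to 7.94 RPKM in L3 and was not called (adjusted p 0.18), whereas the repulsive receptor gene unc-5 had 0.232 and 0.381 RPKM in R7 and 4.03, 4.67, 6.39 and 4.34 RPKM in L3 (log2 difference -2.15 ± 0.18, adjusted p 6.83e-07). The slit receptor gene robo3 had 1.26 and 0.910 RPKM in R7 and 17.9 to 38.8 RPKM in L3. Secreted semaphorins split between the neurons, with Sema-2a at 8.46 and 11 RPKM in R7 and 31.2 to 42.5 RPKM in L3, and Sema-2b at 11.3 and 9.18 RPKM in R7 and 0.894 to 1.43 RPKM in L3. The fasciclin genes Fas1 (153 and 127 RPKM in R7, 26.0 to 31.6 in L3) and Fas3 (39.4 and 35.5 RPKM in R7, 134 to 175 in L3) also went opposite ways, and Fas2 was high in both and not called (520 and 510 RPKM in R7, 681 to 1001 in L3). The gene Dscam, also Dscam1, was at most 1.56 RPKM in any of the 6 libraries.

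Of 36 other adhesion and surface genes tested, 19 were higher in L3 and 9 in R7 (median -0.69). The share called was 77.8%, against 55.5% of all genes tested. The paralogous genes kirre and rst, whose proteins bind those of sns and hbs, were higher in L3. The gene kirre had 19.6 and 19.4 RPKM in R7 and 677, 593, 320 and 555 RPKM in L3 (log2 difference -4.66 ± 0.36, adjusted p 2.46e-07). Its binding partner hbs was higher in R7, at 65.0 and 72.1 RPKM against 7.83, 10.6, 6.96 and 13.9 RPKM (2.73 ± 0.27, adjusted p 2.89e-06). The teneurin genes, which code for paired adhesion proteins of partner neurons, also split. Ten-a had 76.0 and 70.9 RPKM in R7 and 9.08, 10.2, 13.5 and 18.2 RPKM in L3, while Ten-m had 9.29 and 9.42 RPKM in R7 and 41.4, 33.7, 33.6 and 39.7 RPKM in L3. Both teneurin genes were called in the second contrast (2.89 for Ten-a, adjusted p 9.01e-05, and -2.23 for Ten-m, adjusted p 2.04e-05). Dscam3 had 0.421 and 0.492 RPKM in R7 and 45.0, 54.0, 43.6 and 56.1 RPKM among the L3 libraries. The neurexin gene Nrx-1 had 50.8 and 67.2 RPKM in R7 and 360 to 673 RPKM in L3. Several surface genes were high in both neurons and not called, among them klg (378 and 364 RPKM in R7, 253 to 343 in L3), Sdc (819 and 791 in R7, 677 to 831 in L3) and Dscam2 (175 and 166 in R7, 178 to 235 in L3). The gene klg was nevertheless called in the second contrast (-4.31, adjusted p 1.71e-07), since L3 exceeded the mean of the other lamina types by 5.06 on the log2 scale.

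Of 23 genes of synaptic release tested, 9 were higher in L3, 2 in R7 and 12 were not called, with a median of -0.31. The share called was 47.8%, against 55.5% of all genes tested. The active zone gene brp had 20.3 and 21.5 RPKM in R7 and 47.6, 44.6, 81.1 and 88.5 RPKM in L3 (log2 difference -1.54 ± 0.29, adjusted p 6.77e-04). The synaptic vesicle gene Sap47 was higher in R7, with 423 and 442 RPKM in R7 and 53.7, 49.6, 68.6 and 64.5 RPKM in L3 (2.86 ± 0.20, adjusted p 1.12e-07). R7 was also above R8 for Sap47, by 1.81 on the log2 scale (adjusted p 0.000195). Without R7 replicate 1, Sap47 was the 1 release gene higher in R7. The core genes n-syb (194 and 183 RPKM in R7, 151 to 207 in L3), Syt1 (54.6 and 43.1 in R7, 50.4 to 77.0 in L3) and Syx1A (301 and 317 in R7, 158 to 274 in L3, with 10.7% of exonic bases shared) were not called. Of 11 pan-neuronal genes tested, 6 were higher in L3 and 2 in R7. The RNA-binding gene fne, a relative of elav, had 15.1 and 19.0 RPKM in R7 and 390, 296, 510 and 549 RPKM in L3 (log2 difference -4.57 ± 0.28, adjusted p 3.00e-08), and its relative Rbp9 was higher in R7, at 99.4 and 92.2 against 30.6 to 56.2 RPKM. The calls for elav itself (34.2% of exonic bases shared with other genes) and, on the R7 side, for futsch were lost without any of 4 and 5 libraries, with adjusted p up to 0.162 and 0.17, and Rbp9 was then the 1 pan-neuronal gene higher in R7.

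Secreted signals and their receptors divided between the neurons, with 7 of 25 genes tested higher in R7 and 9 in L3, for R7 a share close to that over all genes. The Wnt gene Wnt4 had 317 and 288 RPKM in R7 and 4.51, 8.60, 5.79 and 3.04 RPKM in L3 (log2 difference 5.62 ± 0.44, adjusted p 3.36e-07). Among Wnt receptor genes, fz3 was higher in R7, at 93.2 and 105 RPKM against 1.28 to 7.09 RPKM, while fz and fz2 were higher in L3, at 44.2 to 104.5 and 34.6 to 45.2 RPKM against at most 9.02 and 8.65 RPKM. The genes for making the EGF receptor ligand Spitz were all detected. The ligand gene spi had 795 and 727 RPKM in R7 and 317, 277, 231 and 271 RPKM in L3. Of the protease genes that release Spitz, ru was higher in R7 (37.9 and 33.9 against 1.26 to 3.36 RPKM) and rho in L3 (33.8 and 35.8 RPKM in R7, 208, 166, 208 and 181 RPKM in L3). L3 exceeded the other lamina types for rho by 6.08 on the log2 scale (adjusted p 3.47e-11). The FGF ligand gene ths had 5.01 and 3.59 RPKM in R7 and 62.3, 57.9, 84.9 and 66.1 RPKM in L3. The Notch gene N had 0.940 and 0.914 RPKM in R7 and 21.9, 35.0, 47.4 and 49.7 RPKM in L3 (log2 difference -4.29 ± 0.44, adjusted p 3.99e-06).

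Genes of the ecdysone response and of developmental timing were compared as well, and nothing about the conflicting ages is read from them. Of 20 tested, 9 were higher in L3 and 3 in R7 (median -0.46), so that 60% were called, against 55.5% of all genes tested. The early response genes Eip74EF and Eip75B were higher in L3, at 68.0 to 108 and 160 to 271 RPKM against 28.3 and 26.9 RPKM and 62.2 and 57.1 RPKM. The receptor gene EcR (11.4 and 10.1 RPKM in R7, 12.5 to 20.05 RPKM in L3) and its partner usp were not called. The RNA-binding gene Imp, which marks early-born neurons, had 60.7 and 55.9 RPKM in R7 and 6.69, 7.47, 6.22 and 8.70 RPKM in L3 (log2 difference 2.85 ± 0.24, adjusted p 6.14e-07), and chinmo, another such gene, had 14 and 12.9 RPKM in R7 and 1.73 to 2.82 RPKM in L3. The late gene Eip93F was not called, at 77.9 and 68.9 RPKM in R7 and 44.6, 36.7, 75.5 and 82.1 RPKM in L3.

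**Figure D5:**
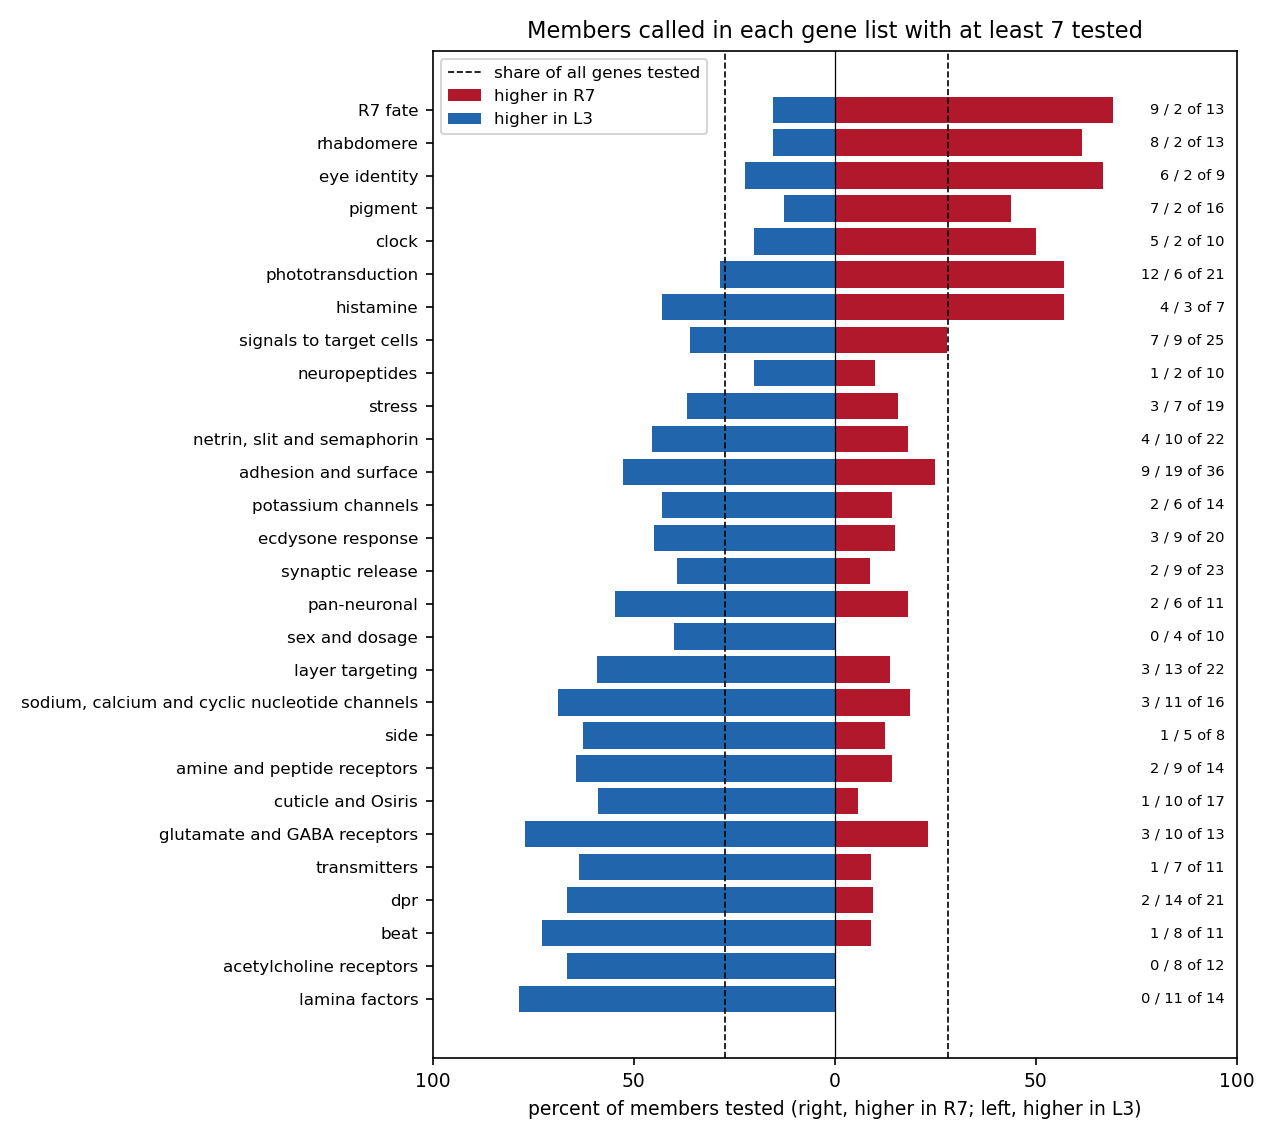
Share of the tested members of each gene list that were called higher in R7 (red, right) or in L3 (blue, left), for the lists with at least 7 members tested, with the counts at the right edge (higher in R7, then higher in L3, of those tested) and dashed lines at the shares over all genes tested (28.1 and 27.4%). R7 fate, rhabdomere and eye identity lie at the top, and lamina factors, acetylcholine receptors, beat and dpr at the bottom.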

How the data were processed

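Sorted neurons were profiled by RNA sequencing, and the values come from a single table of RPKM that the authors deposited, with 1 column per library and 16 libraries in all. Reads had been aligned with TopHat to BDGP5, per the submitters' processing notes. Which tool counted the reads, with which annotation, strand setting and versions, was not given in the sources read. Samples were grouped by the cell type in their labels. Genes with at least 1 RPKM in at least 2 of the 6 R7 and L3 libraries were kept, values were taken as deposited, and log2(RPKM + 1) was fitted with limma 3.58.1 (R 4.3.3), with a mean for each type over all 16 libraries and a trend in the variance. The error of each comparison is thus pooled over all 7 types. The contrasts were R7 minus L3, the same minus the difference between R8 and the mean of L1, L2, L4 and L5, R7 minus R8, and L3 minus the mean of the other lamina types. P-values were adjusted over all 8580 genes by Benjamini and Hochberg's method, with a threshold of 0.05. A fold change on this scale understates that of genes with low RPKM.

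Depth was estimated from the steps between low values and current exon lengths, and since 70.58 to 72.13% of values up to 20 reads lay within 0.05 of a whole read, no count test was run. The plan named a count test for the case that the table held counts, which it did not. The fit was tested on simulated data. The text names the 10 called genes with the widest difference each way whose higher group averaged 10 RPKM or more and whose R7 and L3 libraries did not overlap. For the second contrast it names 6 each way under the same conditions, called in both contrasts with the same sign. Any member of 35 gene lists could also be named, and 561 of their genes matched the table, of which 451 were tested. Of the list names, 11 had no match. The genes, lists and contrasts were chosen with earlier results of these data known. Alternatives were another scaling, filter, pseudocount, threshold or set of libraries, and the replicate number as a block. IDs of 15002 genes matched current symbols, and overlap of exons was taken from the current annotation. Plots used matplotlib 3.10.9, and tables pandas 2.3.3 and numpy 2.4.6 under Python 3.11.15.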

Additional observations from a re-analysis of the deposited data

Results flagged for a closer look

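The R7 minus L3 difference departed from the difference between R8 and the other lamina types, by limma's test of that contrast over all genes, for 1510 genes (17.6% of all tested) and for 18 of the 21 genes named at the top of the report by difference or as a marker. Most of the 21 were chosen for a wide R7 minus L3 difference, which is itself a term of this contrast, so nothing is read from their share. On the R7 side the second contrast was 5.54 for blanks, 6.005 for CG33639, 5.84 for CG14500, 2.73 for pros, 2.13 for CG10650, 2.05 for CG16959, 1.96 for isoQC and 0.72 for salm. Negative values were -9.11 for CG2016, -8.26 for CG32052, -8.22 for NetB, -7.13 for erm, -7.12 for dpr17 and -6.45 for CG33673. They were -6.07 for CG15537, -4.58 for mthl5, -4.41 for the 5.8S ribosomal RNA gene 5.8SrRNA:CR40454 and -2.11 for cngl. The genes salr, CG31636 and Tsp47F, with second contrasts of -0.07, -0.63 and -2.26, were not called (adjusted p 0.918, 0.262 and 0.0988). For none of these 21 genes did 1 of the 4 L3 libraries lie apart from the other 3 beyond Dixon's critical value, which chance passes in about 1 group in 20.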

How the results depend on the processing

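No called R7 minus L3 difference of a list gene or top gene changed direction under any alternative run. Single genes were not followed through the alternatives in the other contrasts, for which only counts of the second contrast are given here. The count of genes called between R7 and L3 ranged from 3300 to 4898 with 1 library left out (1677 to 2562 higher in R7, 1605 to 2579 higher in L3), and the second contrast from 926 to 1783 (262 to 598 positive, 664 to 1185 negative). With a required difference of more than 2-fold, 1254 genes were called (572 higher in R7, 682 in L3), and 491 in the second contrast (94 and 397). Quantile normalization gave 921 positive and 789 negative second contrasts, against 531 and 979. Without L3 replicates 3 and 4 the second contrast called 2290 genes (1539 negative), and without replicates 1 and 2 it had 879 positive values. The median over all genes was then -0.104 and 0.126. The cause was not tested. Whether replicate numbers pair the samples could not be told. R7 and L3 share only 2 numbers, whose deviations from the type mean correlated at -0.0532 and 0.277. With 2 R7 libraries these deviations mirror each other, so the values cannot decide it. With the replicate number as a block, in which L3 replicates 3 and 4 carry no weight, 5115 genes were called between R7 and L3 and 2472 in the second contrast (830 positive, 1642 negative). Median-ratio scaling (4936 genes called), no filter (4847), rescaling without mitochondrially encoded genes (4842), a pseudocount of 0.1 (4767) and a fit on the 6 libraries alone (3978) stayed within 1.5 times the reported count. At the estimated depths, 3 reads of a 2 kb gene correspond to 0.0185 to 0.0231 RPKM in the R7 and L3 libraries, and lower levels were not measurable. The planned count test was not run, since the table holds RPKM.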

Other observations

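Clock genes were higher in R7 for 5 of 10 tested and in L3 for 2, and none was higher in L3 without R7 replicate 1 or R7 replicate 2. In all 70% were called, against 55.5% of all genes tested, of which 28.1% were higher in R7 and 27.4% in L3. The gene tim, whose protein pairs with that of per, had 16.3 and 14.5 RPKM in R7 and 1.58, 1.17, 1.25 and 1.14 RPKM in L3 (log2 difference 2.84 ± 0.18, limma's adjusted p 5.16e-08). The cycle gene cyc had 113 and 110 RPKM in R7 and 24 to 33.8 RPKM in L3. The blue-light receptor gene cry had 16.4 and 20.3 RPKM in R7 and 1.04 to 2.78 RPKM in L3, with 17.8% of its exonic bases shared with other genes. In the second contrast none of the clock genes passed with a positive value and 4 passed with a negative one, tim at -1.42 and cry at -1.31 among them. Of all genes tested, 6.19% and 11.4% did so.

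Pigment genes were higher in R7 for 7 of 16 tested (4 without R7 replicate 1) and in L3 for 2 (1 without L3 replicate 3 or R7 replicate 1 or 2). In all 56.2% were called, close to the 55.5% of all genes tested. The pteridine synthesis gene Pu had 17.3 and 19 RPKM in R7 and 2.33 to 2.82 RPKM in L3. The gene w, white, whose transporter carries pigment precursors, had 61.7 and 50 RPKM in R7 and 138, 167, 114.7 and 129 RPKM in L3.

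Stress genes were higher in L3 for 7 of 19 tested and in R7 for 3 (1 without R7 replicate 1 or R7 replicate 2). Their share called was 52.6%, against 55.5% of all genes tested. The small heat shock gene Hsp67Bc had 379 and 429 RPKM in R7 and 4793 to 9444 RPKM in L3, and a log2 difference of -4.07 ± 0.31 (adjusted p 2.40e-07). The heat shock gene Hsp68 had 2.7 and 8.5 RPKM in R7 and 131, 113, 225 and 224 RPKM in L3. Copies of Hsp70 share reads.

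Cuticle and Osiris genes varied widely within both groups. Of those tested 64.7% were called, against 55.5% of all genes tested, of which 27.4% were higher in L3. In L3 10 of 17 tested were higher, but only 3 without R7 replicate 1. Osi7 had 3.16 and 50.3 RPKM in R7 and 59.8, 313, 47.7 and 96.4 RPKM in L3. The cuticle protein gene Cpr92F was the 1 gene higher in R7, with 43.7 and 50.3 RPKM there and 0.0467, 0.465, 0.197 and 0.331 RPKM in L3. Genes of sex determination and dosage compensation were higher in L3 for 4 of 10 tested (2 without R7 replicate 2), with none higher in R7 by limma (1 at an unadjusted p under 0.05, msl-2, and 1 called without L3 replicate 1 or 2). Among them fru had 0.0666 and 0.0489 RPKM in R7 and 8.74, 7.84, 6.93 and 10.8 RPKM in L3. The share called of these 10 genes was 40%, against 55.5% of all genes tested.

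Of 10 neuropeptide genes tested, 1 was higher in R7 and 2 were higher in L3 (30% called, against 55.5% of all genes tested). The first count was 2 without L3 replicate 1 and 0 without L3 replicate 3 or 4 or R7 replicate 1 or 2, and the second was 1 without L3 replicate 1 or R7 replicate 1 or 2. Of 6 cone and pigment cell markers tested, 1 was higher in R7 (2 without L3 replicate 2) and 2 in L3 (1 without L3 replicate 2 or 4 or R7 replicate 1 or 2). Their share called was 50%. Of the 3 markers of medulla neurons and progenitors that were tested, none was called by limma (1, stg, at an unadjusted p under 0.05, and 2 called higher in L3 without L3 replicate 3). The 1 tested marker of R1 to R6 and R8, wts, was higher in R7 (log2 difference 0.64, adjusted p 0.0146) and was not called without R7 replicate 1.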
